A study of Mus musculus with 16 samples.

Results

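Serine withdrawal was followed in 16 RNA-seq libraries of cultured mouse macrophages, 8 from medium without serine and 8 from complete medium, and the effect was averaged over resting and LPS-treated cells. All 16 libraries of the series enter the comparison, and 11004 of the 43430 genes in the table had enough reads to be tested. The cells were bone marrow-derived macrophages of C57BL/6J mice, which are primary phagocytes grown from marrow with the growth factor M-CSF for 6 days in RPMI. They were then plated in complete MEM, in MEM lacking serine, in complete MEM with LPS at 100 ng/mL, or in MEM lacking serine with the same LPS dose, and RNA was taken 4 h after LPS. LPS is a bacterial cell wall component that macrophages sense through TLR4. Each of the 4 groups holds 4 libraries with replicate numbers 1 to 4, and no group carries a genetic change. The labels give neither the time in serine-free medium nor whether the replicates come from separate animals or cultures, so the p-values speak only of the scatter among libraries, which may be technical. In bulk RNA, fewer cells expressing a gene and less RNA per cell cannot be told apart.

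Serine is a nonessential amino acid that cells import or make from a glycolytic intermediate through Phgdh, Psat1 and Psph. It supplies glycine and folate-bound one-carbon units through Shmt2 and Mthfd2 in mitochondria and Shmt1 in the cytosol. When an amino acid runs short, uncharged tRNA activates the kinase GCN2, phosphorylation of eIF2 slows general translation, and translation of the transcription factor ATF4 rises. ATF4 binds composite C/EBP-ATF elements and raises genes of amino acid synthesis, import and tRNA charging.

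Library totals ranged from 2871477 to 10043362 counts. The shallowest was replicate 4 of the untreated cells without serine, with 12900 genes detected where the other 15 libraries had 14000 to 16031, and with 23.1% of its counts in its 20 most abundant genes against 12.3% to 17.3%. Its weight in a limma voom fit that weighs libraries by their scatter was 0.0437, against 0.776 to 1.68 for the others, so results are given with 16 libraries and again without it. The summed level of 14 macrophage marker genes lay between 19341 and 33944 CPM (read counts set to a common library size, with TMM scaling) with serine and between 18485 and 32079 without it. The sum was higher without serine in 1 of 8 pairs. None of the 14 was called with 16 libraries, and 1 was called higher and 3 lower without the shallow one. Markers of monocyte progenitors summed to 12.1 to 39.8 CPM with serine and 7.59 to 28.6 without, also higher in 1 of 8 pairs, with 1 member called lower without that library. The part of these shifts in the results was not tested. Neutrophil markers summed to 22.4 to 156 CPM, with none called. The same sums for markers of T and NK cells and of erythroid cells stayed at or below 0.560 CPM in every library, with Cd3e, Cd3d and Cd3g at 0 throughout. A sum of 4 endothelial markers was 58.6 to 98.6 CPM with serine and 34.4 to 113 without, higher in 7 of 8 pairs with no member called, and its part in the results was not tested. Replicate 1 of each group had no Xist count and 1214 to 2420 counts of Y chromosome genes. The other libraries had 351 to 1477 Xist counts and 1 to 16 of those genes. By these counts replicate 1 came from male cells and the other replicates from female cells, so replicate 1 is not from the same animal as the others. Whether the other replicates are separate animals cannot be read from them. The block for the replicate number also takes up the difference in sex.

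With the LPS state and the replicate number as terms of the model, 65 genes rose and 25 fell without serine (edgeR quasi-likelihood test, Benjamini-Hochberg adjusted p under 0.05, here written as called). That is 0.591% and 0.227% of the genes tested, and 1218 genes had an unadjusted p under 0.05. The higher genes were led by asparagine synthetase Asns, the stress pseudokinase Trib3, the glutathione-degrading enzyme Chac1, the water and glycerol channel Aqp9 and the cysteinyl-tRNA synthetase Cars. The lower genes included the sterol synthesis enzyme Hsd17b7 and the matrix glycoprotein Emilin1. Of the 65 higher genes, 32 stand in lists of ATF4 targets, cytosolic tRNA synthetases or amino acid transporters, which hold 74 of the tested genes. These lists were drawn up with earlier results of these data known, so that count is no independent evidence. The median absolute log2 fold change of the 90 genes was 0.65, and 15 changed at least 2-fold. Leaving out replicate 4 of the untreated cells without serine brought the counts to 571 higher and 346 lower, or 5.19% and 3.14%, with all 90 genes among them in the same direction. The biological coefficient of variation was 16.8% with that library and 7.96% without it.

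**Figure D1:**
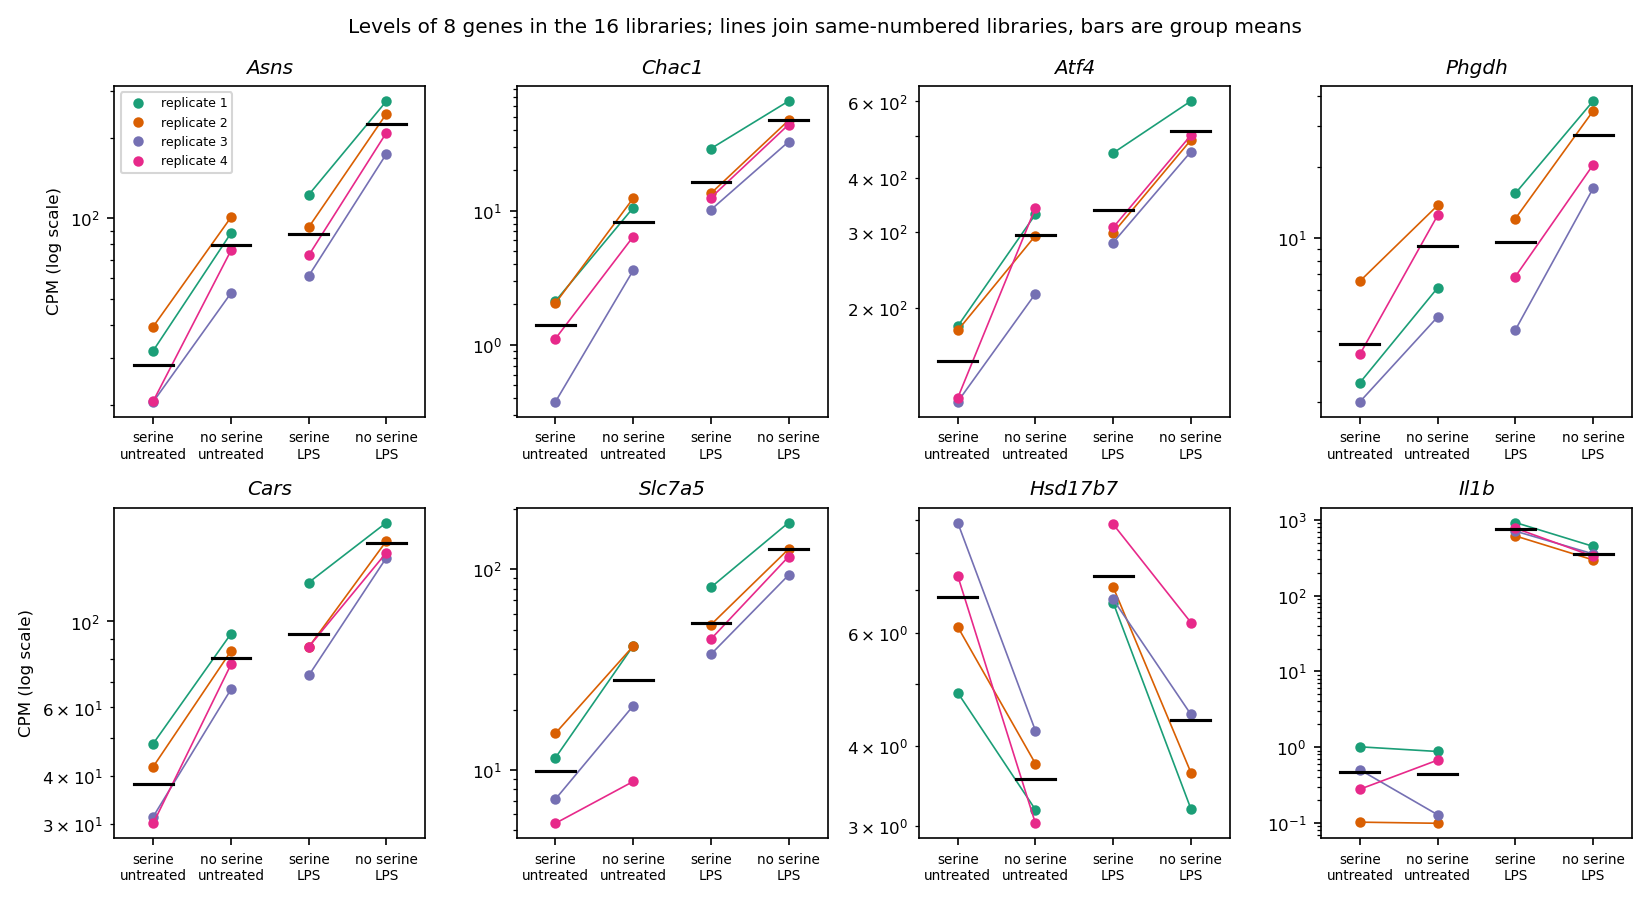
CPM (log axis) of 8 genes in each of the 16 libraries. Lines join libraries with the same replicate number within a state and black bars are group means. Asns, Chac1, Atf4, Phgdh, Cars and Slc7a5 are higher without serine in all 8 pairs, Hsd17b7 is lower in all 8, and Il1b differs at levels above 1 CPM in LPS-treated cells alone.

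Asns (ENSMUSG00000029752, chr6:7675169-7693254, minus strand, mm10) makes asparagine from aspartate and is a textbook target of ATF4. In untreated cells its level was 32.0, 39.4, 20.6 and 20.7 CPM in replicates 1 to 4 with serine and 88.0, 101, 52.5 and 75.8 CPM without. In LPS-treated cells the values were 122, 92.6, 60.9 and 72.7 CPM with serine and 275, 246, 174 and 209 CPM without. The groups did not overlap in either state. The averaged log2 fold change was 1.45 ± 0.09 (SE, 8 libraries against 8, adjusted p = 1.73e-06, edgeR), from 1.5 ± 0.13 in untreated and 1.40 ± 0.13 in LPS-treated cells, and the call held in all 31 alternative analyses.

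Chac1 (chr2:119351229-119354381, plus strand) encodes a glutathione-degrading enzyme induced downstream of ATF4 and CHOP. It stood at 2.12, 2.04, 0.377 and 1.11 CPM with serine and 10.5, 12.3, 3.59 and 6.40 CPM without in untreated cells. With LPS the levels were 29.0, 13.4, 10.1 and 12.5 CPM and 65.5, 47.1, 32.7 and 43.8 CPM. Again no library without serine fell into the range of its controls. Its averaged log2 fold change of 1.89 ± 0.20 (adjusted p = 0.000280, edgeR) was the largest rise among the 90 called genes. Trib3 (chr2:152337422-152344032, minus strand), a pseudokinase that feeds back on ATF4 and CHOP, was at 17.4, 22.3, 13.7 and 11.1 CPM and 62.1, 56.0, 22.2 and 48.2 CPM in untreated cells with and without serine. In LPS-treated cells it was at 40.4, 27.2, 14.9 and 19.1 CPM and 126, 79.5, 53.2 and 64.4 CPM. Replicate 3 was the lowest library without serine in both states, and in untreated cells it sat just under the highest control. The averaged change of Trib3 was 1.58 ± 0.14 (adjusted p = 5.42e-05, edgeR).

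Aqp9 (chr9:71110659-71168682, minus strand) is not among the listed ATF4 targets. It was scarce in untreated cells, at 0.706, 1.43, 0.628 and 0.417 CPM with serine and 2.47, 3.36, 1.28 and 1.01 CPM without. LPS-treated cells held 11.3, 11.2, 4.06 and 7.05 CPM and 34.2, 27.2, 17.0 and 22.0 CPM. The groups overlapped in untreated cells, where replicates 3 and 4 without serine lay under replicate 2 of the controls, and were separate with LPS. All 8 same-numbered pairs were higher without serine, by 0.78 to 1.99 on the log2 CPM scale, and the averaged log2 fold change was 1.56 ± 0.15 (adjusted p = 0.000162, edgeR).

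The 300 bases around the start sites of these 4 genes (250 before and 50 after, RefSeq, GRCm38.p6, 5′ to 3′ on the gene's strand) are shown because each holds the letters TGATGNAA on one of its strands, the core of the C/EBP-ATF element. Capitals mark the match, which appears as its reverse complement where it lies on the other strand. The windows are chr6:7693160-7693459 on the minus strand, chr2:152344011-152344310 on the minus strand, chr9:71162584-71162883 on the minus strand and chr2:119350992-119351291 on the plus strand.
Asns: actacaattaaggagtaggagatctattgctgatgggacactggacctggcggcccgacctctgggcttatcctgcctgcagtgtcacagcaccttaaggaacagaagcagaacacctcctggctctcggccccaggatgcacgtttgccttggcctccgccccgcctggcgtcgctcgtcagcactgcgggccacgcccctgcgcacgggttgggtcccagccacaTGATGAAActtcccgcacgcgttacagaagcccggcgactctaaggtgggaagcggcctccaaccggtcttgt
Trib3: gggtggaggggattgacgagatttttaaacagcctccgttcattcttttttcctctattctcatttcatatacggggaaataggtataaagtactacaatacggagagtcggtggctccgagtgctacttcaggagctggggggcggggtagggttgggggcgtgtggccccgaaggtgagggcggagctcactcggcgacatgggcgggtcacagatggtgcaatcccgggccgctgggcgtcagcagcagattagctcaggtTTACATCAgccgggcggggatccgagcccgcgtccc
Aqp9: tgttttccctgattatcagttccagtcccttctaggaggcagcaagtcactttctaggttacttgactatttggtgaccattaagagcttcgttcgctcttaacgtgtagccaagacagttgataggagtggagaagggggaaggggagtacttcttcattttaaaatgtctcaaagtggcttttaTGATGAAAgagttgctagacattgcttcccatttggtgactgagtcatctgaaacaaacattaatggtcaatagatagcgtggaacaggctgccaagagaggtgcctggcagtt
Chac1: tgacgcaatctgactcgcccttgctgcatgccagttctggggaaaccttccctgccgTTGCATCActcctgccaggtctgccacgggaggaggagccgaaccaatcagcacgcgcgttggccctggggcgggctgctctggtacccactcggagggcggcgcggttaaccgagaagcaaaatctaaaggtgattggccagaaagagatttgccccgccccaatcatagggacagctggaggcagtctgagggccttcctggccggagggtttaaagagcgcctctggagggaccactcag
The match starts 23 bases before the RefSeq start of Asns, 14 after that of Trib3, 64 before that of Aqp9 and 193 before that of Chac1. The Aqp9 window lies wholly inside the bounds of the counted gene given above, and not at their outer end. A RefSeq window was matched for 52 of the 65 higher genes, and 13 of them (25%) hold TGATGNAA on either strand, against 242 of 8764 tested genes with a window (2.76%). The other 9 are Pck2, Gars, Aars, Yars, Arl14ep, Slc1a4, Herpud1, Tars and Plekhh3. Aars holds TTGCATCA at -112 and TTTCATCA at 9, Gars TTTCATCA at -30, and Yars TGATGCAA at 3. Among the 20 lower genes with a window only Idi1 holds it, and of the 571 genes called higher without the shallow library 435 have a window and 33 of these hold it (7.59%). The related letters TGACGNAA stand in 4 of the 52 windows against 3.31% of all. A match describes these letters in this window and shows no binding.

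Of the transcription factors of the response, 4 rose: Atf4, Ddit3, Cebpg and Atf5. Atf4 itself (chr15:80255184-80257540) was at 181, 177, 121 and 124 CPM with serine and 329, 294, 216 and 340.5 CPM without in untreated cells. With LPS it was at 456, 298, 283 and 307 CPM and 601, 489, 459 and 501 CPM. It was higher without serine in all 8 pairs, with groups that did not overlap in either state. The averaged log2 fold change was 0.80 ± 0.10 (adjusted p = 0.00122, edgeR), and its mRNA was abundant, at 188 RPKM over all libraries. Ddit3, which encodes the stress factor CHOP, rose by 1.07 ± 0.15 (adjusted p = 0.00231), from 38.9 to 71.6 CPM in the means of untreated cells and from 31.4 to 80.2 CPM with LPS. The Ddit3 groups overlapped in both states while all 8 pairs were higher. Its gene bounds overlap those of Mars by 68 bases on the opposite strand, and the library kit does not mark strand. Cebpg, a dimer partner of ATF4, rose by 0.65 ± 0.10, and Atf5 by 0.84 ± 0.15 (adjusted p = 0.00424 and 0.0172, edgeR). Atf5 overlaps Nup62 and Il4i1 on the opposite strand, and of the 90 called genes 8 overlap a tested gene in this way. In the list of 19 stress transcription factors these 4 were the ones called, none fell, and the median was 0.18 against 0.01 over all genes. Upstream components were less marked. A list of eIF2, its kinases, phosphatases and exchange factor, which also holds Atf4, had 14 tested genes. Its 1 call was Atf4 itself, and without the shallow library 3 members rose and 0 fell. Ppp1r15a, the stress-induced eIF2 phosphatase subunit, had 0.45 ± 0.11 (adjusted p = 0.101, and 0.0454 without the shallow library).

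Of 33 tested genes listed as ATF4 targets, 21 rose and none fell with 16 libraries, and 25 rose and none fell without the shallow one. The list's median log2 fold change was 0.72, against 0.01 over all genes, and all 33 values were above 0. With earlier results known when it was drawn up, the list is no independent evidence of its direction. Pck2, the mitochondrial phosphoenolpyruvate carboxykinase, was lower with LPS than without in both media and rose in both states. Its level was 46.7, 36.6, 37.2 and 32.4 CPM with serine and 78.6, 81.9, 56.7 and 102 CPM without in untreated cells. In LPS-treated cells it was 18.9, 17.8, 9.30 and 11.5 CPM and 45.9, 45.5, 31.4 and 35 CPM. The groups were separate in both states and the averaged change was 1.24 ± 0.13 (adjusted p = 0.000322, edgeR). Aldh18a1, the first enzyme of proline synthesis, rose by 1.13 ± 0.18, and Gdf15, a secreted stress hormone, by 0.87 ± 0.15 (adjusted p = 0.00601 and 0.00928). Of 16 tested mTORC1 and translation brakes, 2 rose and none fell, the 4E-binding protein Eif4ebp1 at 0.83 ± 0.15 and the leucine sensor Sesn2 at 0.75 ± 0.16 (adjusted p = 0.0136 and 0.0430). Sesn2 kept its call in 3 of the 16 fits that left out 1 library, and in untreated cells its replicate 4 without serine, the shallow library, was the lowest of its 8 values (39.4, 28.7, 31.3 and 30.2 CPM with serine, 60.4, 46.6, 40.2 and 22.6 CPM without). Its relative Sesn1 had -0.45 ± 0.12 (adjusted p = 0.110), and was called lower without the shallow library (0.00291). The folliculin partner Fnip1 reached 0.33 ± 0.07 (adjusted p = 0.0516, and 0.000191 without that library).

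The cystine importer Slc7a11, a known ATF4 and NRF2 target, did not follow the list. It was at 30.1, 24.8, 13.3 and 18.2 CPM with serine and 48.7, 28.9, 17.3 and 19.5 CPM without in untreated cells. With LPS it was far higher, at 1035, 639, 419 and 559 CPM with serine and 987, 626, 394 and 462 CPM without. The 4 untreated pairs were all higher without serine and the 4 LPS-treated pairs all lower, with groups that overlapped in both states. The log2 fold changes were 0.36 ± 0.11 and -0.12 ± 0.10, and the difference between them was -0.48 ± 0.15 (unadjusted p = 0.00591, adjusted p = 0.828, edgeR). The average over the states was 0.10 ± 0.10 (adjusted p = 0.773).

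The first 2 enzymes of serine synthesis rose. Phgdh (chr3:98313170-98339990, minus strand), which commits 3-phosphoglycerate to the pathway, was at 2.42, 6.54, 2.01 and 3.20 CPM with serine and 6.13, 13.7, 4.61 and 12.5 CPM without in untreated cells. In LPS-treated cells it was at 15.5, 12.1, 4.06 and 6.85 CPM and 38.2, 34.6, 16.2 and 20.4 CPM. Replicates differed in level by more than 2-fold, so the untreated groups overlapped, while each pair moved the same way. The averaged log2 fold change was 1.44 ± 0.21 (adjusted p = 0.00424, edgeR). Psat1, the transaminase of the second step, was at 11.5, 16, 9.29 and 10.1 CPM and 19.3, 23.1, 13.6 and 13.1 CPM in untreated cells. With LPS its controls lay close together at 34.6, 34.8, 34.3 and 34.2 CPM, and all 4 libraries without serine were above them at 67.0, 59.7, 58.6 and 63.2 CPM. Its averaged change was 0.72 ± 0.11 (adjusted p = 0.00479). Psph, the phosphatase of the last step, had 0.51 ± 0.19 (adjusted p = 0.325) and was higher in all 8 pairs, but was not called in any of 31 alternatives.

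The mitochondrial and cytosolic arms of folate metabolism differed in their calls. Mthfd2, the mitochondrial methylene-tetrahydrofolate dehydrogenase, rose from 33.6, 30.7, 14.7 and 14.6 CPM to 86.5, 81.0, 48.3 and 55.9 CPM in untreated cells. In LPS-treated cells it was at 176, 139.7, 123 and 132 CPM with serine and 278, 269, 262 and 283 CPM without. The groups were separate in both states, and the averaged change was 1.25 ± 0.15 (adjusted p = 0.000790, edgeR). Shmt2, the mitochondrial serine hydroxymethyltransferase, rose by 0.93 ± 0.14 (adjusted p = 0.00528), with means of 20.0 and 31.2 CPM in untreated and 23.1 and 52.0 CPM in LPS-treated cells. These were 2 of the 6 mitochondrial folate genes tested. None of 11 cytosolic folate genes was called, with or without the shallow library, and the cytosolic Shmt1 had 0.24 ± 0.22 (adjusted p = 0.766), a value that turned to -0.05 when the libraries of replicate 4 were left out. Whether the 2 arms differ was not tested as such.

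Cytosolic aminoacyl-tRNA synthetases load amino acids onto their tRNAs. Of 20 tested, 10 rose and none fell (14 and none without the shallow library), with a median log2 fold change of 0.52. The 17 mitochondrial synthetases gave no call in either analysis and a median of -0.05. Cars (chr7:143557230-143600090, minus strand) was at 48.4, 42.2, 31.4 and 30.2 CPM with serine and 92.9, 83.9, 66.8 and 77.5 CPM without in untreated cells. LPS-treated cells had 126, 85.9, 72.6 and 86.0 CPM and 180.0, 161, 146 and 151 CPM. The groups were separate in both states, with an averaged change of 0.94 ± 0.08 (adjusted p = 5.42e-05, edgeR). Yars, for tyrosine, rose by 1.02 ± 0.13, Mars, for methionine, by 0.73 ± 0.08, and Aars and Gars, for alanine and glycine, by 0.70 ± 0.09 and 0.69 ± 0.08. Sars, which charges tRNA with serine, stood at 108, 130.2, 109 and 107 CPM with serine and 164, 182, 138 and 209.8 CPM without in untreated cells. LPS-treated cells had 74.5, 89.7, 71.7 and 62.6 CPM and 144, 142, 93.5 and 114 CPM. Its averaged change of 0.66 ± 0.09 (adjusted p = 0.00273) lay inside the range of the 10 called synthetases, from 0.48 for Lars to 1.02 for Yars. Nars, Tars and Eprs were at 0.60, 0.61 and 0.56. Iars had a value as large, 0.66 ± 0.17, with more scatter (adjusted p = 0.10, and 0.00312 without the shallow library). Xpot, the nuclear exporter of tRNA, rose by 0.46 ± 0.07 (adjusted p = 0.00696).

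Of 27 tested amino acid transporters 5 rose and none fell (8 and 1 without the shallow library), while the list's median, 0.01, was that of all genes. Slc7a5 and Slc3a2 form the LAT1 exchanger of large neutral amino acids. Slc7a5 was at 11.5, 15.2, 7.16 and 5.42 CPM with serine and 41.5, 41.4, 20.9 and 8.76 CPM without in untreated cells. The LPS-treated libraries held 81.3, 52.9, 37.7 and 44.9 CPM and 171, 126, 93.7 and 116 CPM. The shallow library, replicate 4, was the lowest without serine and lay inside the range of the untreated controls, and every other library without serine was above them. The averaged changes were 1.37 ± 0.17 for Slc7a5 and 0.44 ± 0.06 for Slc3a2 (adjusted p = 0.00122 and 0.00218, edgeR). The cationic carrier Slc7a1 rose by 1.25 ± 0.12 and the sodium-coupled neutral carrier Slc38a2 by 0.78 ± 0.11 (adjusted p = 0.000181 and 0.00210). Slc1a4, an exchanger that carries serine, was rare at 1.01, 1.84, 1.0 and 0.973 CPM with serine and 3.98, 4.84, 3.07 and 1.35 CPM without in untreated cells. It held 7.73, 2.93, 2.03 and 2.82 CPM and 15.5, 8.83, 6.72 and 8.17 CPM with LPS. It was higher in all 8 pairs with groups that overlapped, and rose by 1.41 ± 0.22 (adjusted p = 0.00528).

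**Figure D2:**
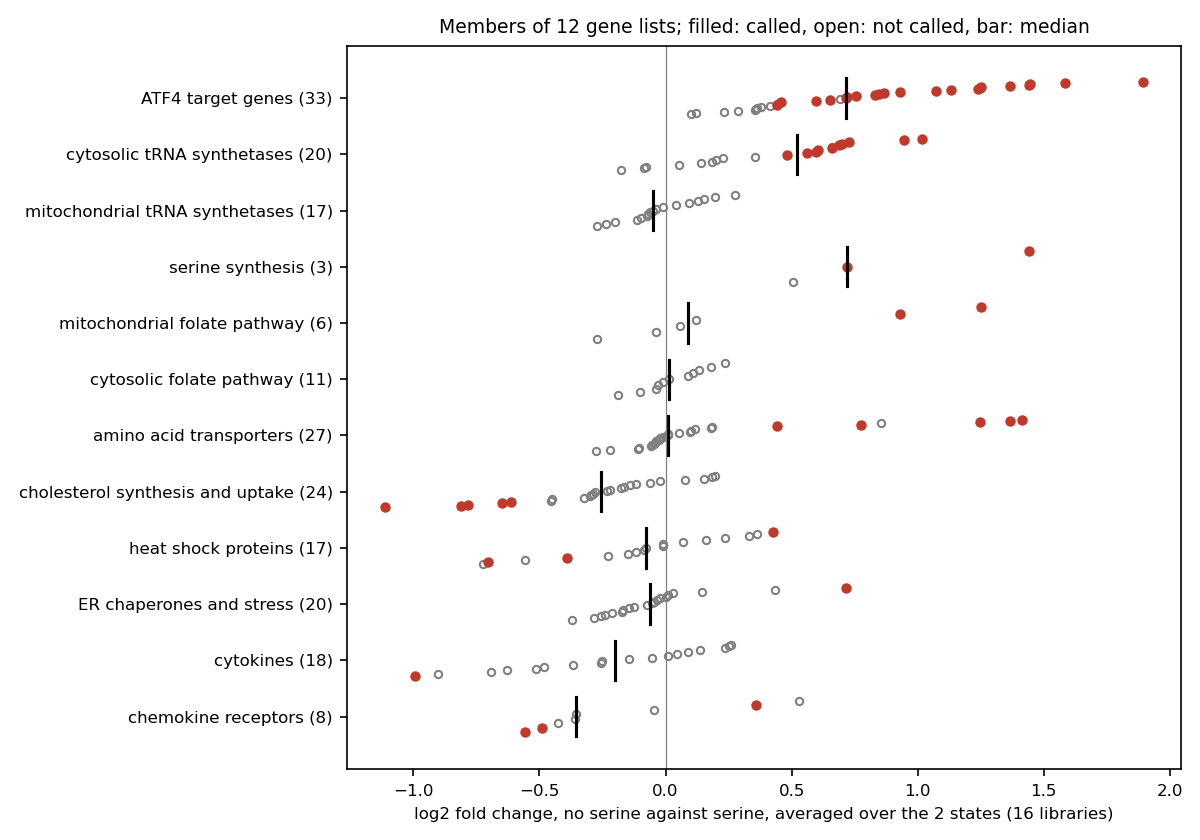
Averaged log2 fold change (x axis) of each tested member of 12 gene lists (y axis, number of members in brackets). Filled points are called, open points are not, and the bar is the list's median. All 33 ATF4 targets lie above 0 and 10 of 20 cytosolic synthetases are called, while none of the 17 mitochondrial synthetases and 5 of 24 cholesterol genes, all lower, are called.

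Cholesterol genes were the one metabolic list with more than 1 member called lower with 16 libraries. Of 24 tested genes of sterol synthesis and uptake, 5 fell and none rose (12 and none without the shallow library), with a median of -0.26. Hsd17b7 (chr1:169949535-169969241, minus strand), an enzyme of the late pathway, was at 4.84, 6.13, 8.91 and 7.37 CPM with serine and 3.18, 3.75, 4.23 and 3.03 CPM without in untreated cells. The LPS-treated libraries held 6.69, 7.07, 6.77 and 8.86 CPM with serine and 3.19, 3.64, 4.48 and 6.23 CPM without. The groups were separate in both states, and the averaged log2 fold change was -0.81 ± 0.13 (adjusted p = 0.00528, edgeR). The sterol carrier Stard4 had -0.65 ± 0.13 and the isopentenyl isomerase Idi1 -0.78 ± 0.17 (adjusted p = 0.0344 and 0.0484). Stard4 kept its call in 4 of the 16 fits that left out 1 library, and Idi1 in 1. Sqle, the squalene epoxidase, had -0.45 ± 0.11 (adjusted p = 0.0962, and 0.0140 without the shallow library). The sterol esterification enzymes Soat1 and Soat2 rose, by 0.31 ± 0.07 and 0.87 ± 0.19 (adjusted p = 0.0389 and 0.0484). Each kept its call in 3 of the 16 fits that left out 1 library. Soat2 was scarce, at 1.41, 2.35, 2.13 and 1.11 CPM in untreated cells with serine. None of 12 fatty acid synthesis genes was called with 16 libraries, and 1 fell without the shallow one.

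Among the lower genes, 6 were under 1 CPM in both untreated groups, namely Il1b, Cxcl3, Ch25h, Shisa3, Plat and Edn1, so their average rests on LPS-treated cells. Il1b (chr2:129364570-129371139, minus strand), the precursor of interleukin-1β, was at 1.01, 0.102, 0.502 and 0.278 CPM with serine and 0.875, 0.0988, 0.128 and 0.674 CPM without in untreated cells. After LPS it was at 920.3, 613, 708 and 775 CPM with serine and 446, 295, 355 and 330.0 CPM without. All 4 LPS-treated libraries without serine were under all 4 with it, and no difference can be read at the untreated levels. The additive model gave -0.99 ± 0.18 (adjusted p = 0.0181, edgeR), while the mean of the 2 states with equal weight gave -0.63 (adjusted p = 0.472). Ch25h, which makes 25-hydroxycholesterol, was at 352, 321, 464 and 461 CPM with serine and 180.1, 139, 262 and 272 CPM without after LPS, again without overlap. The chemokine Cxcl3 was at 429.8, 152, 82.7 and 89.8 CPM and 284, 101, 49.3 and 50.2 CPM, where replicate 1 was the highest in both media, the groups overlapped and all 4 pairs were lower. With equal weight on the states, Ch25h and Cxcl3 had adjusted p of 0.976 and 0.795, and Plat turned to 0.53 (adjusted p = 0.723). These 6 changes are read in LPS-treated cells alone and are not shown to be shared. Edn1 was not called when LPS-treated cells were tested apart (-0.60 ± 0.14, adjusted p = 0.116, edgeR). It kept its averaged call in 1 of the 16 fits that left out 1 library.

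Other LPS-induced cytokines were not called on the average. Il6 and Il12b had 0 counts in all 8 untreated libraries, and gave -0.63 ± 0.11 and -0.69 ± 0.16 (adjusted p = 0.0598 and 0.161, edgeR). Il1a gave -0.48 ± 0.11 (adjusted p = 0.0598). Il6 and Il1a were each called lower in 1 of the 16 fits that left out 1 library, and Il12b in 0. Tnf, from the same LPS programme, stood at means of 13.1 ± 2.82 and 15.8 ± 5.82 CPM (SD, n = 4) in untreated cells with and without serine, and its averaged value was 0.05 ± 0.11 (adjusted p = 0.928). That value was -0.04 without the shallow library. Of 18 cytokines tested, 1 fell and none rose, and without the shallow library 4 fell and 1 rose. No call was made among 23 genes of the NF-kB pathway, 35 interferon-stimulated genes or 21 genes of TLR signalling with 16 libraries. Over all tested genes 0.591% were called higher and 0.227% lower, so lists this short may well hold none at that rate. Without the shallow library, 4 genes of TLR signalling rose and 1 fell, 1 of the NF-kB pathway fell, and no interferon-stimulated gene was called. The shares over all tested genes were then 5.19% higher and 3.14% lower.

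Of 22 tested macrophage receptors 2 fell and none rose, namely C5ar1 and Cx3cr1 (3 fell and 1 rose without the shallow library). Of 8 chemokine receptors 2 fell, Cx3cr1 and Ccr3, and 1 rose, Ccrl2 (4 and 1 without it). The complement receptor C5ar1 was at 378, 302, 373 and 358 CPM with serine and 310.4, 253, 351 and 259 CPM without in untreated cells. With LPS it was at 390.5, 319.9, 411 and 379 CPM and 294, 262, 328 and 307 CPM. The groups overlapped in both states and all 8 pairs were lower, with an averaged log2 fold change of -0.30 ± 0.06 (adjusted p = 0.0305, edgeR). The fractalkine receptor Cx3cr1, the eotaxin receptor Ccr3 and the activating receptor Trem1 fell, with log2 fold changes of -0.56 ± 0.11, -0.49 ± 0.10 and -0.73 ± 0.14 (adjusted p = 0.0344, 0.0344 and 0.0236). Trem1, which is in neither list, was scarce in untreated cells, at 4.04, 1.53, 1.76 and 1.81 CPM with serine and 3.42, 0.988, 1.02 and 0.674 CPM without. The gene bounds of Cx3cr1 overlap those of Wdr48 on the opposite strand by 24964 bases. Whether their exons overlap, so that reads of the 2 cannot be told apart, was not examined. Ccrl2, a receptor that binds chemerin, rose by 0.36 ± 0.08 (adjusted p = 0.0488). Of the 16 fits that left out 1 library, Trem1 kept its call in 7, C5ar1 in 3, Cx3cr1 and Ccr3 in 2 each and Ccrl2 in 1. The matrix glycoprotein Emilin1 was lower in all 8 pairs, at 92.0 ± 6.36 and 67.9 ± 9.46 CPM (SD, n = 4) in untreated cells with and without serine and 42.1 ± 6.44 and 20.3 ± 5.09 CPM with LPS. It fell (log2 fold change -0.73 ± 0.12, adjusted p = 0.00696) and kept its call in all 16. Caveolin Cav1, the actin-severing gelsolin Gsn and the glutaredoxin Glrx also fell, with log2 fold changes of -0.39 ± 0.08, -0.30 ± 0.06 and -0.42 ± 0.08 (adjusted p = 0.0264, 0.0281 and 0.0230). They kept their call in 3, 4 and 7 of the 16 fits.

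Protein folding genes moved in both directions. Of 17 heat shock genes, the mitochondrial chaperone Hspa9 rose by 0.43 ± 0.09, and the cytosolic Hspa8 and Hspa1b fell, with log2 fold changes of -0.39 ± 0.08 and -0.71 ± 0.15 (adjusted p = 0.0374, 0.0482 and 0.0475, edgeR). Hspa9 and Hspa1b each kept their call in 3 of the 16 fits that left out 1 library, and Hspa8 in 2. Hspa1b has a near-identical copy, Hspa1a, with -0.72 ± 0.21 (adjusted p = 0.178), and the split of reads between them is uncertain. Of 20 genes of the endoplasmic reticulum stress list, Herpud1, which ATF4 also drives, rose by 0.72 ± 0.12 (adjusted p = 0.00775). No other member was called with 16 libraries, and without the shallow one 3 rose and 6 fell, the latter including Xbp1 (-0.28 ± 0.04, adjusted p = 0.000518), Manf (-0.44 ± 0.07, 0.000594) and the chaperone Calr (-0.20 ± 0.04, 0.00314). In the list of glutathione and NRF2 genes Chac1 rose, and none of the other 19 was called. Without the shallow library 4 fell, among them Gclm, a subunit of the rate-limiting enzyme of glutathione synthesis (-0.26 ± 0.06, 0.00706), and sulfiredoxin Srxn1 (-0.33 ± 0.07, 0.00495). None of 41 lysosomal genes was called with 16 libraries and 9 rose without it, among them Gla (0.27 ± 0.04) and Atp6v1c1 (0.26 ± 0.04). The BH3-only gene Bbc3 rose by 0.55 ± 0.09, the transcription factor Klf4 by 0.60 ± 0.12 and the glucosylceramide synthase Ugcg by 0.49 ± 0.10 (adjusted p = 0.00775, 0.0382 and 0.0264). Bbc3 kept its call in all 16 fits that left out 1 library, and Klf4 and Ugcg in 4 each.

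The 2 states were also tested apart. In untreated cells 9 genes rose (0.0818% of those tested) and none fell (0%), and in LPS-treated cells 73 rose (0.663%) and 25 fell (0.227%). Of the 90 genes called on the average, 8 were called in both states, all higher, and 39 in neither. Both states gave the same sign for all 65 higher genes and for 23 of the 25 lower ones, the exceptions being Ch25h and Plat. Those 23 include Il1b, Cxcl3, Shisa3 and Edn1, which were under 1 CPM in both untreated groups, so their untreated sign cannot be read. Over all tested genes the signs agreed for 52.2%. Of the 65 higher genes, 59 were higher in all 8 pairs, against 3.10% of all genes, and 17 of the 25 lower genes were lower in all 8, against 3.02%. A gene called on an average is one whose states tend to agree, so these counts describe the 90 genes and test nothing. Without the shallow library the signs agreed for 88 of the 90, 84 moved one way in all 7 remaining pairs, and 34 were called in both states. Over all 11004 tested genes the signs then agreed for 62.5%, 14.2% moved one way in all 7 pairs, and 56 were called in both states.

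**Figure D3:**
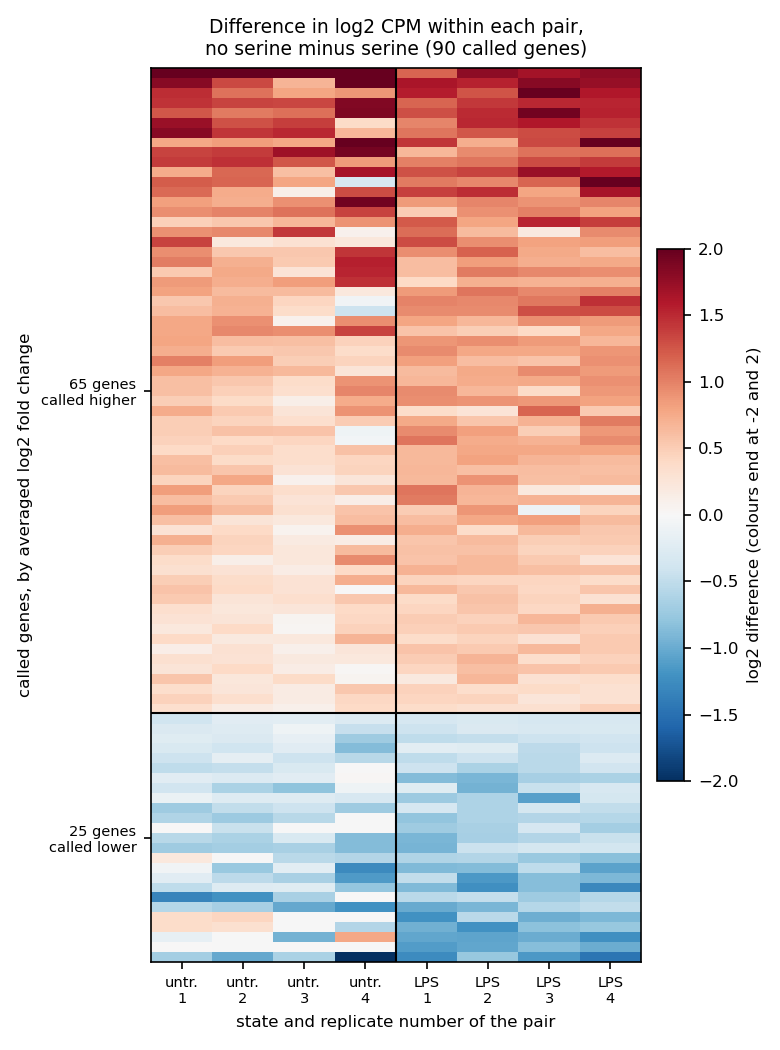
Difference in log2 CPM, no serine minus serine, for the 90 called genes (down the side, ordered by averaged fold change) in the 4 untreated and 4 LPS-treated pairs (columns), with colours ending at -2 and 2. Of the 65 higher genes 59 are positive in all 8 columns, and of the 25 lower genes 17 are negative in all 8.

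A difference between the withdrawals in the 2 states was not detected at this depth with 16 libraries: 0 of 11004 genes were called by edgeR, with 465 at an unadjusted p under 0.05. DESeq2 called 8 and limma voom with library weights 13. This does not show that the states respond alike. Among the 90 genes 15 had an unadjusted p under 0.05 for the difference. Mthfd2 and Chac1 had larger changes in untreated cells (1.56 ± 0.19 against 0.97 ± 0.18, unadjusted p = 0.0365, and 2.52 ± 0.29 against 1.59 ± 0.21, unadjusted p = 0.0239). Shmt2 and Cebpg had larger changes with LPS (0.65 ± 0.18 against 1.21 ± 0.18, unadjusted p = 0.0437, and 0.43 ± 0.11 against 0.88 ± 0.11, unadjusted p = 0.0128). Without the shallow library 8 genes were called for the difference, and 2 of them are among the 90. Cebpg then rose by 0.33 ± 0.07 in untreated and 0.88 ± 0.07 in LPS-treated cells (adjusted p of the difference 0.0491, edgeR). The splicing factor Srsf6 had -0.25 ± 0.06 and -0.77 ± 0.06 (adjusted p of the difference 0.0129).

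**Figure D4:**
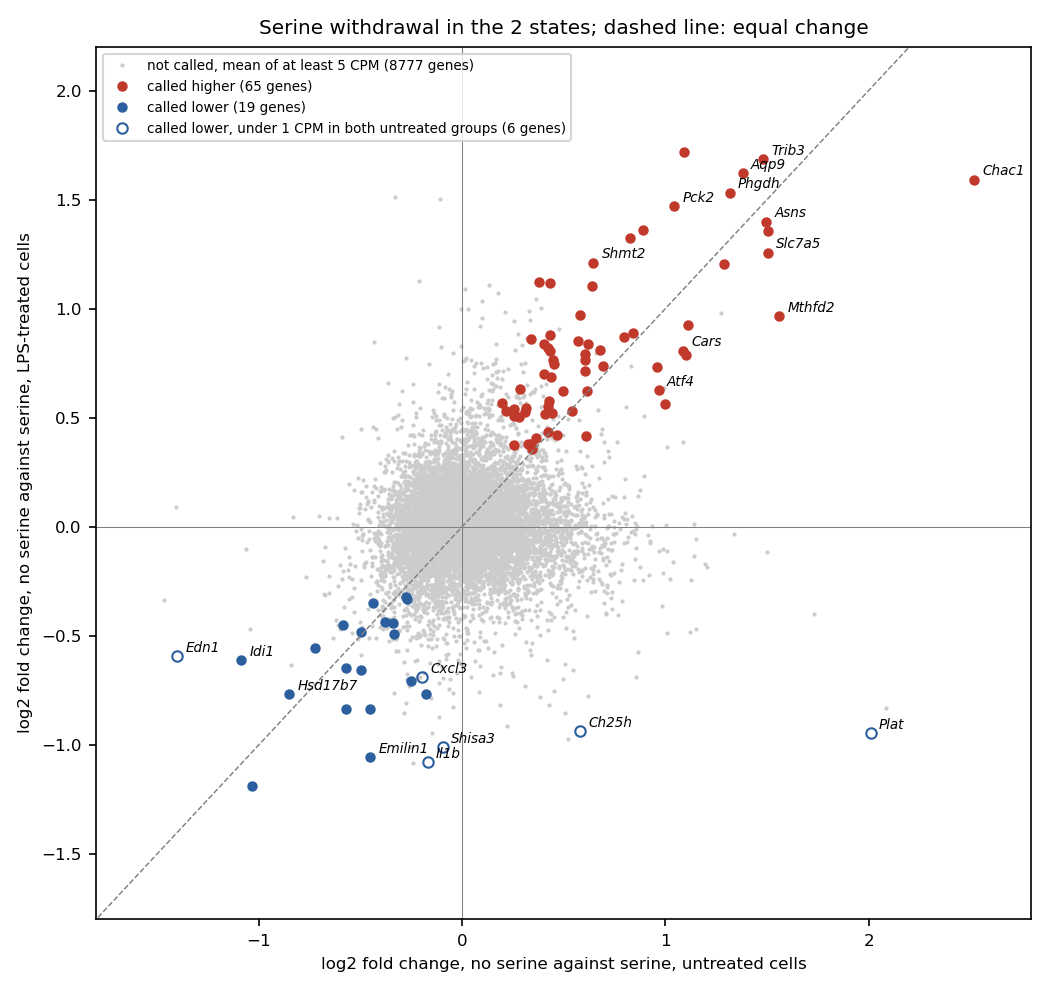
Log2 fold change of each gene in untreated cells (x axis) and in LPS-treated cells (y axis), with the 65 higher and 25 lower genes in colour and 8777 other genes with a mean of at least 5 CPM in grey, 3 of which lie outside the axes. The higher genes lie in the upper right on both sides of the dashed line of equal change, and the 6 open circles, under 1 CPM in untreated cells, spread along the x axis.

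The medians of some long lists of abundant genes moved with the shallow library. Cytosolic ribosomal protein genes had a median log2 fold change of 0.23 over 82 tested members, 0.46 in untreated and -0.0042 in LPS-treated cells, and -0.0061 on the average once that library was left out. Respiratory complex I followed the same pattern, with 0.17, 0.43, -0.04 and -0.04. No member of the ribosomal list was called with 16 or 15 libraries.

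**Figure D5:**
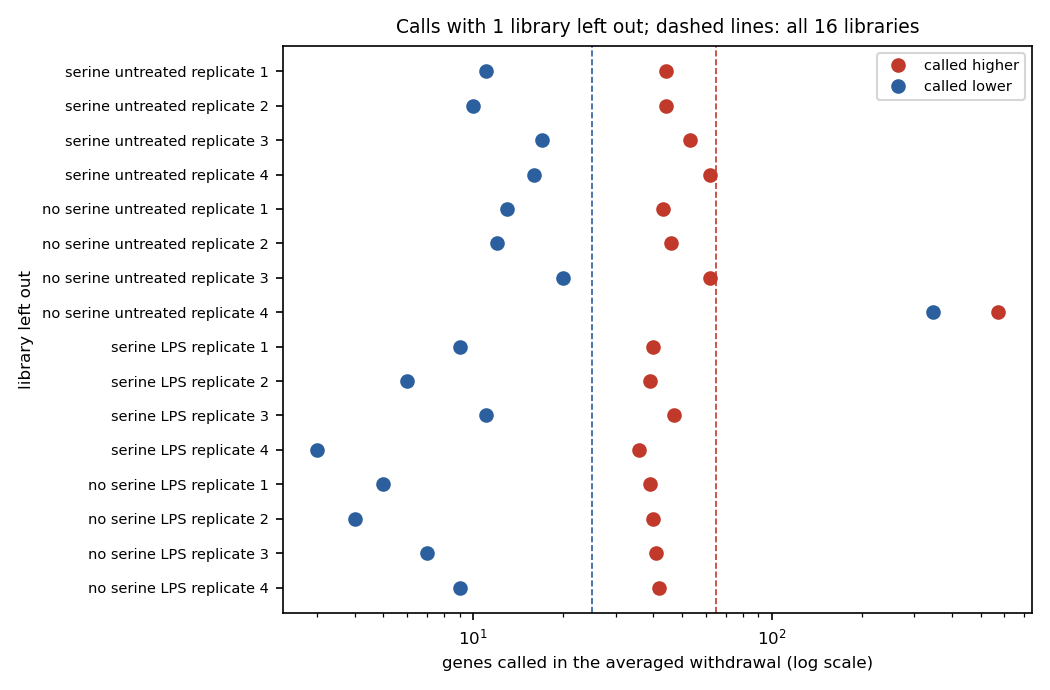
Number of genes called higher and lower in the averaged withdrawal (x axis, log scale) when the library named on the y axis is left out. Dashed lines mark 65 and 25, the counts with all 16. Leaving out replicate 4 of the untreated cells without serine gives 571 and 346, and leaving out any other library gives 36 to 62 higher and 3 to 20 lower.

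Of the 65 higher genes 35 kept their call in each of the 16 fits that left out 1 library, and 3 of the 25 lower genes did, Emilin1 and Hsd17b7 among them. In all 31 alternatives 13 higher genes kept it, namely Asns, Cars, Trib3, Aqp9, Slc7a1, Chac1, Pck2, Mars, Mthfd2, Gars, Aars, Atf4 and Yars. In the authors' deposited tables, 6 genes are marked higher on withdrawal in untreated cells and in LPS-treated cells alike, Mthfd2, Cars, Chac1, Asns, Trib3 and Pck2, and all 6 rose here on the average. Those tables mark 65 genes higher and 20 lower in LPS-treated cells, of which 33 and 6 were called here in the same direction on the average. That table compares the LPS-treated groups alone, which are part of the 16 libraries averaged here, and the highest adjusted p among the genes marked in the authors' deposited tables is 0.00945, while the threshold here is 0.05.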

How the data were processed

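RNA-seq of 16 macrophage libraries was analysed from the table of read counts per gene that the authors deposited. The submitters' processing notes name HTSeq, STAR and edgeR, further Trimmomatic 0.33, SAMtools and the genome build mm10, without roles or settings here. Gene lengths (another column of that table, in bases) were taken as deposited by the authors and used only for RPKM. The authors' deposited tables of comparisons give log2 fold changes, adjusted p-values and marks of higher and lower genes. FPKM and normalised values were not used, nor were 24 further columns of per-sample values.

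Counts were tested in R 4.3.3 with edgeR 4.0.16: filterByExpr (minimum count 10), TMM scaling, robust quasi-likelihood fit, and Benjamini-Hochberg adjustment over 11004 genes. The averaged effect came from an additive model of serine, LPS state and replicate number, and the effect in each state and their difference from a model of the 4 groups with the same block. CPM use TMM-scaled library sizes, log2 CPM a prior count of 2, and the standard error (SE) is the absolute log2 fold change divided by the square root of F. Symbols were matched for 42462 gene IDs. Residuals of the 8 same-numbered pairs with and without serine correlated at 0.185 to 0.66 (24 differently numbered pairs, -0.373 to 0.141), so the numbers were taken to pair the libraries, although the labels do not say what a number marks. No 2 libraries were copies: the least different of 120 pairs had a chi-square of 2.04 for each degree of freedom.

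On simulated counts for the 16-library comparison over 11004 genes, 50% of 40 genes raised by 0.5 on the log2 scale and 100% of 40 raised by 1 were called. Of 40 lowered by 0.5, 35% were called, and of 40 lowered by 1, 77.5%, with 12 false calls. A gene had the same dispersion in every simulated library, and none was given the extra scatter of the shallow one. These rates may therefore not hold for the real comparison. Alternatives were no replicate block, RLE and total-count scaling, DESeq2 1.42.0, limma 3.58.1 voom with library weights, other filters, a non-robust fit, the mean of the 2 states, and leaving out each library or replicate number. The mean of the 2 states without the shallow library, and the list and sharing counts without it, were added after seeing the data. The library kit does not mark strand.

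The genes described and all 45 lists were chosen with earlier results of these data known. Genes were named by a rule: 10 genes of serine metabolism and the stress response, the 15 higher and 15 lower genes with the smallest p, the 5 largest changes in each direction, and up to 4 members of each list by p. Other named genes were chosen after their values were seen, among them Sars, Nars, Lars, Eprs, Tars, Iars, Slc1a4, Slc7a11, Gdf15, Xpot, Idi1, Edn1, Srsf6, Soat1, Soat2, Hspa1a, Sqle and Tnf. Results for a few genes that the rule would name are not reported here.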

Additional observations from a re-analysis of the deposited data

Results flagged for a closer look

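Called genes among those named were tested for a library standing apart, in groups with a mean of at least 1 CPM. Total counts, genes detected and the share of the 20 most abundant genes were tested too. The measure was the gap to the nearest neighbour divided by the group's range (Dixon's ratio, against its 95% critical value). Of 258 groups of 4 libraries tested, 16 were found, all for genes. Chance gives about 1 in 20 groups. None was the shallow library. Replicate 1 was the highest for Trem1 in all 4 groups, with ratios of 0.891 and 0.872 in untreated cells with and without serine and 0.842 and 0.876 with LPS. It was also the highest for Glrx in untreated controls (0.890), for Atf4 (0.863), Eif4ebp1 (0.932) and Slc1a4 (0.842) in LPS-treated controls, and for Cebpg in LPS-treated cells without serine (0.890). Replicate 2 was the highest in untreated controls for Hspa9 (0.868), Sars (0.911) and Slc1a4 (0.959). It was the lowest for Ccr3 in untreated controls and in LPS-treated cells without serine (both 0.921) and for Glrx in LPS-treated controls (0.925). Replicate 4 was the highest for Herpud1 in untreated controls (0.838).

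Slc7a11 was higher without serine in all 4 untreated pairs and lower in all 4 LPS-treated pairs. The difference of the log2 fold changes, LPS-treated minus untreated, was -0.48 ± 0.15 (adjusted p = 0.828, edgeR), which does not pass the threshold.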

How the results depend on the processing

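Without the replicate block, the averaged withdrawal gave 28 higher and 3 lower genes in place of 65 and 25, untreated cells 0 in place of 9, and LPS-treated cells 6 in place of 98. Without the block and without the shallow library the counts were 160 and 50, 0 and 156. DESeq2 called 201 higher and 90 lower on the average, 42 in untreated cells, 252 with LPS and 8 for the difference. Limma voom with library weights called 588, 387, 97, 727 and 13. Total-count scaling gave 58 in LPS-treated cells. The mean of the 2 states without the shallow library gave 621 higher and 318 lower. Leaving out 1 library or replicate number gave 16 to 571 higher, 1 to 346 lower, 2 to 79 in untreated cells, 5 to 926 with LPS and 0 to 8 for the difference. The highest of each is without the shallow library, and fewer libraries were tested in all of these. The cause of the other shifts was not tested.

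Of the genes named, 3 changed sign: Plat to 0.53 in the mean of the 2 states and 0.56 in that mean without the shallow library, Shmt1 to -0.0523 without replicate 4 (up to 0.362, without replicate 2), and Tnf to -0.0537 with voom, -0.0358 without the shallow library and -0.0169 without replicate 4 (up to 0.118, without replicate 3). Precision rests on 2871477 counts in the shallowest library.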
